A study of Homo sapiens with 9 samples.

Results

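The RNA interference machinery was followed here through 10 genes, chosen by symbol from the 29972 genes of the deposited table: AGO1, AGO2, AGO3, AGO4, DICER1, DROSHA, TNRC6A, TNRC6B, TNRC6C and XPO5. All 10 were found, and all 10 passed the filter on low values described with the processing. H2030 cells, a long-established human line of non-small cell lung carcinoma, were transfected with 20 nmol/L of siRNA in 3 groups of 3 libraries. Control cells received a non-targeting pool, siMENA11a cells a mix of siRNAs that each match 21 bases of exon 11a of ENAH, and siMENA cells a siGENOME pool against ENAH. ENAH encodes the actin regulator hMENA, and hMENA11a is its isoform with exon 11a. No untransfected cells were analysed here, so all 3 groups carry siRNA duplexes and lipid reagent, and the control and siMENA pools come from different product lines. Nothing in the labels says whether replicate libraries are separate cultures, and the p-values cover only the spread between libraries, which may be technical.

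Small RNAs that silence genes are made and used in a fixed order. In the nucleus, DROSHA with its partner DGCR8 crops primary microRNA transcripts into hairpins, which XPO5 carries to the cytoplasm, where DICER1 cuts them into duplexes. An Argonaute protein (AGO1 to AGO4) keeps one strand as a guide, and a TNRC6 scaffold protein (TNRC6A to TNRC6C, the GW182 family) bound to it recruits deadenylases and decay factors to the paired transcript. Synthetic siRNA duplexes enter at the Argonaute step and use the same proteins, with AGO2 as the main Argonaute that cuts fully matched targets.

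Values are TPM (a transcript level per length, scaled to the library total) divided by a size factor for each library, called scaled TPM. That factor ranged from 0.995 to 1.04 for control libraries, from 0.886 to 0.973 for siMENA11a libraries and from 1.06 to 1.09 for siMENA libraries. TPM keeps no sequencing depth, so the number of reads behind a value is unknown. Each library held 12258 to 12520 genes at 1 TPM or more. Pairs of libraries correlated over genes (not independent points) at 0.978 to 0.985 within a group and 0.951 to 0.971 between groups. RN7SL transcripts took 39.6% to 41.1% of TPM in control and siMENA libraries and 44.3% to 45.2% in siMENA11a libraries. ENAH lay at 43.2 to 44.7 scaled TPM in the controls, 46.7 to 48.7 with siMENA11a and 6.89 to 7.48 with siMENA. Values summed over isoforms check the siMENA label and not loss of exon 11a. The epithelial keratins KRT8 (mean 93.6 scaled TPM) and KRT18 (228.8) were high, whereas KRT19, CDH1 and CLDN4 stayed under 0.24 in every library and the lung lineage genes NKX2-1, SFTPB, SFTPC and NAPSA under 0.33. Summed epithelial markers lay at 359.6 to 371.9 scaled TPM in the controls, 319.1 to 332.6 with siMENA11a and 316.0 to 334.5 with siMENA. Within that list KRT7 averaged 9.93, 15.8 and 4.32 (called higher in siMENA11a and lower in siMENA), EPCAM 1.46, 2.90 and 3.10 (called higher in both) and CLDN7 3.54, 3.31 and 3.63 (not called). Of the leukocyte markers CD3E was listed at 0 in all 9 libraries, and the summed list lay at 1.29 to 1.32 in the controls, 1.62 to 2.27 with siMENA11a and 0.852 to 1.03 with siMENA, nearly all of it CD14. Summed fibroblast markers (6 genes, none at 0 throughout) lay at 8.83 to 9.41, 7.80 to 8.23 and 15.4 to 17.2 in the same order, mostly COL1A1. Summed endothelial markers (5 genes, with TEK at 0 in all 9) lay at 0.513 to 0.672, 0.550 to 0.587 and 0.973 to 1.18. The part of these markers, of RN7SL and of the size factors in the results was not tested.

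An siRNA can also lower transcripts that match only its seed, the guide bases 2 to 8, usually through a matching word of 7 bases in the 3' UTR. The siMENA11a duplexes match stretches of the 63-base coding exon of ENAH printed here, whose words were looked for in the 3' UTR of the 10 genes. A guide's seed pairs near the 3' end of the matched stretch, and the duplex sequences were not used here. The exon lies on the minus strand at chr1:225504991-225505053 of GRCh38. The capitals mark CCAAGGAA at bases 11 to 18, towards its 5' end, which holds the overlapping words CCAAGGA and CAAGGAA. A matched stretch of 21 bases inside the exon ends at its base 21 or later. CCAAGGA lies too far towards the 5' end to be a seed match of such a stretch. CAAGGAA could be one at most for a stretch that starts at the first base of the exon, and whether it is one is not known.
ENAH exon: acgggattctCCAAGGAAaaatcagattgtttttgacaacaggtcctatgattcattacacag
Among the 57 words of the exon these 2 were picked because genes carrying them had the lowest mean change in siMENA11a against control (differences of -0.15 and -0.14 on the log2 scale from genes without the word). The choice therefore rests on the same data, and no test was made of it.

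Either word, read on the transcript strand, was present in the longest annotated 3' UTR of 7 of the 10 genes and of 24.1% of the 11308 genes searched. These UTRs are long, however, with a median of 4277 bases for the 10 genes against 1358 for all genes searched, and among genes with at least 5000 bases 64.2% carried a word. Of the 5 genes called lower in siMENA11a than in control, 4 carried a word (DROSHA, XPO5, AGO3 and TNRC6C) and DICER1 carried none. The words were picked from this same comparison, so that count is no support for them. Over all searched genes a word was carried by 31.3% of those called lower and 21.0% of the rest, a gap that the choice of the words from this comparison builds in. AGO1, AGO2 and TNRC6B carried words and were not called lower, and AGO4 and TNRC6A carried none. Examples are shown from genes that fell and then from genes that did not, leaving out 5 places in AGO3, 2 in AGO1 and both in AGO2, with the word in capitals and the coordinates of the capitals in GRCh38.
DROSHA (chr5:31400723-31400729, minus strand): aacagacttCAAGGAAgtcaaaaac
XPO5 (chr6:43523221-43523227, minus strand): atagtacctCCAAGGAccagggctg
XPO5 (chr6:43523057-43523063, minus strand): cgttgtcatCCAAGGAtaatacaga
AGO3 (chr1:36061917-36061924, plus strand): ccaagggaaCCAAGGAAagcttttat
AGO3 (chr1:36062450-36062457, plus strand): ttctagacaCCAAGGAAtattttaaa
TNRC6C (chr17:78106732-78106738, plus strand): attgttttgCAAGGAAgaaagacaa
AGO1 (chr1:35922449-35922455, plus strand): cccaagcttCAAGGAAgtgcttggg
TNRC6B (chr22:40331246-40331252, plus strand): tattacacaCAAGGAAaaggggttt
AGO3 had 7 such places in 16755 bases, of which the 2 shown match all 8 capitals of the exon. Among other genes with a 3' UTR within 25% of its length, 89.1% of 55 carried a word. For DROSHA (935 bases) and XPO5 (1538 bases), the shortest 3' UTRs of the 10, the corresponding shares were 13.4% of 1653 genes and 22.1% of 2066 genes. XPO5 lay above the median of 1358 bases for all genes searched, of which 24.1% carried a word. The corresponding shares were 45.2% for TNRC6C, 76% for AGO1, 81.7% for AGO2 and 82.9% for TNRC6B. For the genes without a word they were 48.0% for DICER1 and AGO4 and 30.6% for TNRC6A. A match of this kind is a description of the sequence and does not show that an siRNA acted there. The places in XPO5 hold CCAAGGA without CAAGGAA.

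**Figure D1:**
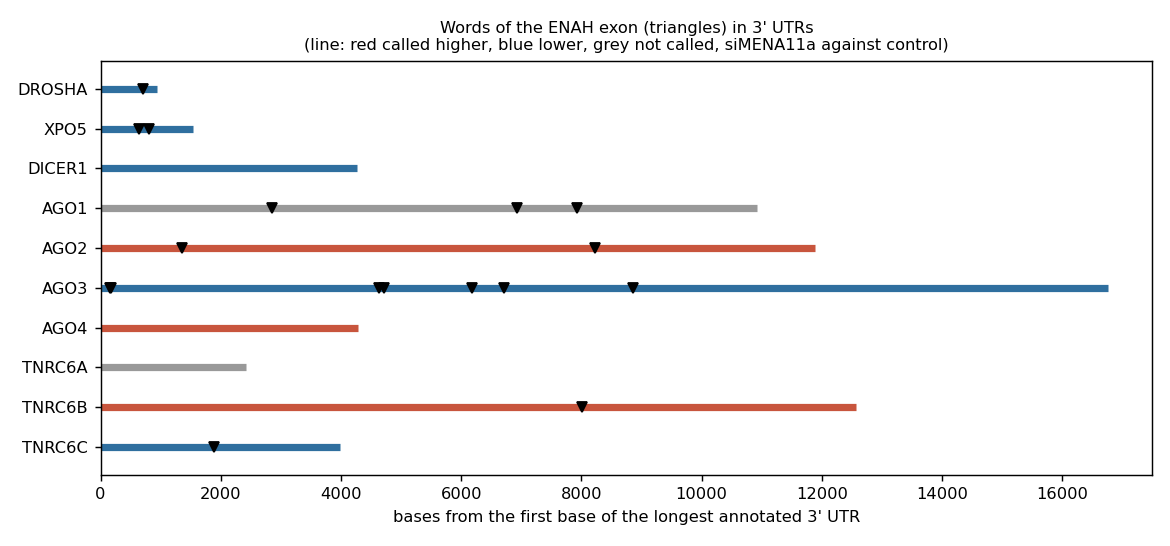
Positions of the 2 exon words (triangles) along the longest annotated 3' UTR of each gene, in bases from its first base, with the line coloured by the call in siMENA11a against control. DROSHA and XPO5 have the shortest UTRs shown, with 1 and 2 matches, AGO3 has 7 matches in 16755 bases, and DICER1, AGO4 and TNRC6A have none.

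All 10 genes differed among the 3 groups by limma's F test (largest adjusted p = 0.0347, for AGO1), where 73.2% of the 13498 tested genes did. In siMENA11a against control, 5 genes were lower (DROSHA, XPO5, DICER1, AGO3 and TNRC6C), 3 were higher (AGO4, TNRC6B and AGO2) and 2 were not called (AGO1 and TNRC6A). Across all tested genes 55.6% were called in that comparison, 27.7% lower and 27.9% higher. In siMENA against control, 4 were higher (TNRC6B, AGO2, AGO4 and AGO1), 2 were lower (TNRC6A and DICER1) and 4 were not called (AGO3, DROSHA, TNRC6C and XPO5), where 49.4% of all genes were called, 23.7% higher and 25.8% lower. In siMENA11a against siMENA, 6 were lower, 2 were higher (AGO4 and TNRC6A) and DICER1 and TNRC6C were not called, where 58.7% of all genes were called, 29.2% lower and 29.5% higher. With 49.4% to 58.7% of all tested genes called, 8, 6 and 8 called members of 10 lie near or above these shares and are not a result about these genes. The 3 comparisons share libraries and are not independent of each other.

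**Figure D2:**
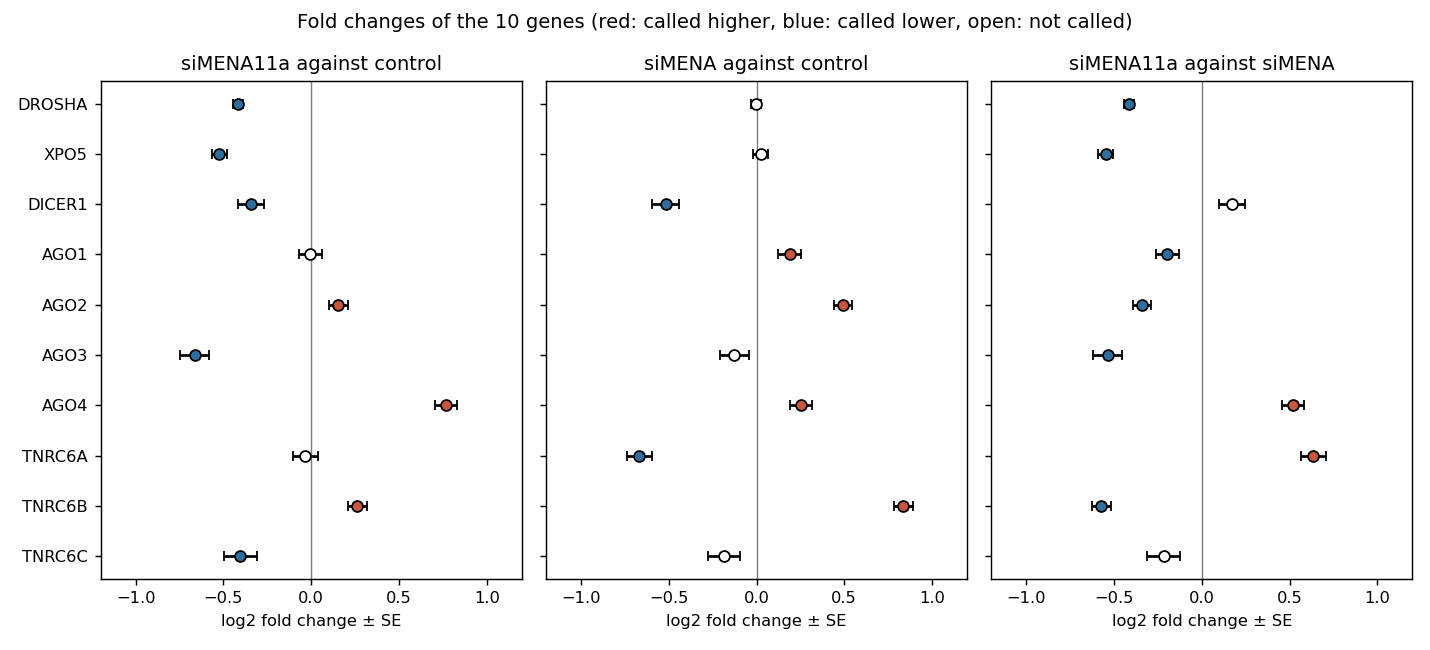
Log2 fold change with its standard error for each gene in the 3 comparisons, filled red where called higher, blue where called lower and open where not called (limma, adjusted p under 0.05). DROSHA and XPO5 lie at -0.42 and -0.52 in siMENA11a against control and at -0.00 and 0.02 in siMENA against control.

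The direction of small changes depends on the scaling. With unscaled TPM the median gene moved by -0.11 on the log2 scale when siMENA11a was set against control and by -0.20 when it was set against siMENA. Changes here are relative to those medians. The share of higher genes among those called went from 50.2% to 28.6% in siMENA11a against control, from 47.9% to 63.4% in siMENA against control and from 50.3% to 24.3% in siMENA11a against siMENA. With TPM rescaled without small and structured RNAs the shares were 62.6%, 66.0% and 47.4%. In TPM as deposited 1 of the 10 genes (AGO4) was called higher and 5 lower in siMENA11a against control. In that setting 51.0% of all tested genes were called in the same comparison, 1965 higher and 4904 lower. The member counts are therefore not a result about these genes.

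DROSHA and XPO5, which act on the nuclear side, were lower in siMENA11a than in either other group. DROSHA, the nuclease that crops primary transcripts (chromosome 5), was at 26.2, 26.4 and 27.1 scaled TPM in control libraries 1, 2 and 3. It was at 19.7, 19.6 and 20.0 in siMENA11a and at 26.5, 26.6 and 26.4 in siMENA. All siMENA11a libraries lay below all others, and the control and siMENA libraries overlapped. DROSHA fell by 0.42 ± 0.030 on the log2 scale in siMENA11a against control (a ratio of means of 0.744, limma adjusted p = 3.39e-06) and by 0.41 ± 0.030 against siMENA (adjusted p = 2.36e-06). In siMENA against control its log2 fold change was -0.00 ± 0.030 (adjusted p = 0.928), and it was 0.09 and called higher (adjusted p = 0.0316) with TPM rescaled without small and structured RNAs.

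XPO5, the export receptor for microRNA hairpins (chromosome 6), followed the same order. It was at 21.9, 22.8 and 21.6 scaled TPM in the controls, 14.7, 15.4 and 15.6 with siMENA11a and 23.6, 21.8 and 22.0 with siMENA. The siMENA11a libraries again lay below all others. The fall was 0.52 ± 0.043 on the log2 scale against control (ratio 0.688, adjusted p = 8.35e-06) and 0.55 ± 0.043 against siMENA (ratio 0.677, adjusted p = 4.30e-06), while siMENA and control differed by 0.02 ± 0.043 (adjusted p = 0.682). Of 6 other export receptors 0 were higher and 2 lower (CSE1L at -0.14 and XPO1 at -0.09 on the log2 scale) in siMENA11a against control. Of all tested genes 27.9% were higher and 27.7% lower there. Neither CSE1L nor XPO1 was called in that comparison under quantile normalisation, where XPO1 turned to 0.02. In siMENA against control 1 of the 6 was higher (XPO7) and 3 were lower (XPO6, XPO1 and XPO4). Of all tested genes 23.7% were higher and 25.8% lower in siMENA against control. The difference between XPO5 and these genes was not tested.

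DICER1, which cuts hairpins and long double-stranded RNA into short duplexes (chromosome 14), was lower after either siRNA against ENAH. Its values were 28.4, 27.9 and 23.7 scaled TPM in the controls, 19.2, 21.1 and 22.3 with siMENA11a and 19.0, 17.9 and 18.3 with siMENA. Control 3 was the lowest control library and still lay above every knockdown library. DICER1 fell by 0.35 ± 0.074 on the log2 scale in siMENA11a (ratio 0.782, adjusted p = 0.00326) and by 0.52 ± 0.074 in siMENA (ratio 0.691, adjusted p = 0.000359). The siMENA11a libraries lay above the siMENA libraries by 0.17 ± 0.074, which was not called (adjusted p = 0.0711). It was called without siMENA11a 1 (0.23, adjusted p = 0.0300) and in a fit of those 2 groups alone (0.17, adjusted p = 0.0361). With unscaled TPM the sign turned (-0.04, adjusted p = 0.736). The ratio of DROSHA to DICER1 TPM was 1.00 ± 0.123 (SD, n = 3) in the controls, 0.951 ± 0.0682 with siMENA11a and 1.44 ± 0.0446 with siMENA.

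**Figure D3:**
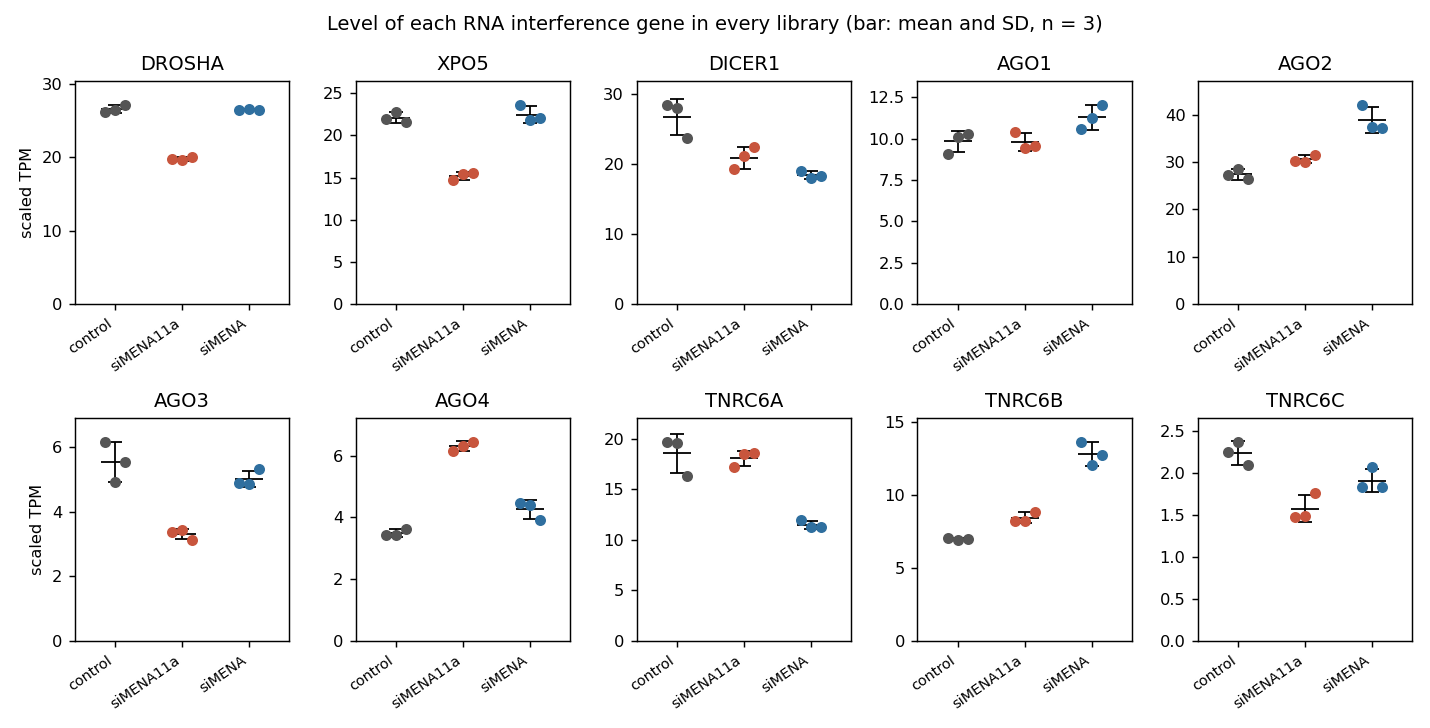
Scaled TPM of each gene in every library (points), with the mean and SD of each group of 3 (black). DROSHA, XPO5 and AGO3 are lowest in siMENA11a, AGO4 is highest there, and AGO2 and TNRC6B are highest in siMENA.

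AGO2 was the most abundant of the 4 Argonaute genes in every library. AGO2, the slicing Argonaute (chromosome 8), was at 27.2, 28.6 and 26.4 scaled TPM in the controls, 30.2, 29.9 and 31.5 with siMENA11a and 42.0, 37.3 and 37.1 with siMENA. The 3 groups did not overlap and siMENA was highest. AGO2 rose by 0.49 ± 0.053 on the log2 scale in siMENA against control (ratio 1.42, adjusted p = 5.85e-05) and was 0.34 ± 0.053 lower in siMENA11a than in siMENA (adjusted p = 0.000394). The rise of 0.15 ± 0.053 in siMENA11a against control (adjusted p = 0.0321) shrank to 0.02 without size factors (TPM as deposited, adjusted p = 0.800). Its call was also lost with the replicate number as a block (adjusted p = 0.0504), and without control 1 (0.15, adjusted p = 0.0793), control 3 (0.13, 0.0997), siMENA11a 1 (0.16, 0.0550) or siMENA11a 3 (0.13, 0.0973).

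AGO4, AGO1 and AGO3 lie next to each other in this order on the plus strand of chromosome 1, at chr1:35808172-35857890, chr1:35869808-35930528 and chr1:35930718-36072500 of GRCh38, with 189 bases between the annotated ends of AGO1 and AGO3. They bind guides as AGO2 does, and AGO1 and AGO4 are known for repression without cutting. In siMENA11a the outer genes of this cluster went in opposite directions and AGO1, between them, was not called.

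AGO4 was at 3.42, 3.42 and 3.64 scaled TPM in the controls, 6.14, 6.31 and 6.46 with siMENA11a and 4.45, 4.40 and 3.91 with siMENA. The 3 groups did not overlap, with siMENA11a highest and control lowest. AGO4 rose by 0.77 ± 0.063 on the log2 scale in siMENA11a (ratio 1.81, adjusted p = 7.52e-06), the largest absolute change among the 10 genes in that comparison. It rose by 0.25 ± 0.063 in siMENA (ratio 1.22, adjusted p = 0.00834) and was 0.52 ± 0.063 higher in siMENA11a than in siMENA (adjusted p = 7.12e-05).

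AGO3 was at 6.17, 4.91 and 5.54 scaled TPM in the controls, 3.37, 3.42 and 3.11 with siMENA11a and 4.90, 4.85 and 5.31 with siMENA. Every siMENA11a library lay below all others. AGO3 fell by 0.66 ± 0.082 on the log2 scale in siMENA11a against control (ratio 0.596, adjusted p = 0.000112) and by 0.54 ± 0.082 against siMENA (adjusted p = 0.000344). In siMENA against control it differed by -0.13 ± 0.082, which was not called (adjusted p = 0.233).

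AGO1 was at 9.09, 10.1 and 10.3 scaled TPM in the controls, 10.4, 9.41 and 9.56 with siMENA11a and 10.6, 11.2 and 12.0 with siMENA. Control and siMENA11a libraries overlapped, and the siMENA libraries lay above both groups. The log2 fold change was -0.01 ± 0.066 in siMENA11a against control (adjusted p = 0.952), 0.19 ± 0.066 in siMENA against control (adjusted p = 0.0377) and -0.20 ± 0.066 between the knockdowns (adjusted p = 0.0285). The call in siMENA against control was lost with the replicate block (adjusted p = 0.0544), without a filter (0.0606) and without control 1 (0.14, 0.132), control 2 (0.21, 0.0543), siMENA 2 (0.19, 0.0799) or siMENA 3 (0.14, 0.131). The call between the knockdowns was lost without siMENA11a 2 (-0.17, adjusted p = 0.0956), siMENA11a 3 (-0.18, 0.0818), siMENA 2 (-0.20, 0.0627) or siMENA 3 (-0.15, 0.104).

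Summed over the 4 Argonaute genes, the level was 46.3 ± 0.682 scaled TPM in the controls, 49.9 ± 0.809 with siMENA11a and 59.4 ± 2.27 with siMENA (SD, n = 3). AGO2 made up 59.2% ± 1.61 of the family's TPM in the controls, 61.1% ± 0.983 with siMENA11a and 65.3% ± 2.25 with siMENA. AGO3 made up 12.0% ± 1.52 in control and 6.62% ± 0.422 in siMENA11a, and AGO4 7.55% ± 0.338 and 12.6% ± 0.332. AGO3 thus ranked above AGO4 in control and siMENA and below it in siMENA11a, with no overlap of their libraries within a group. These shares are descriptions and do not depend on the scaling.

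**Figure D4:**
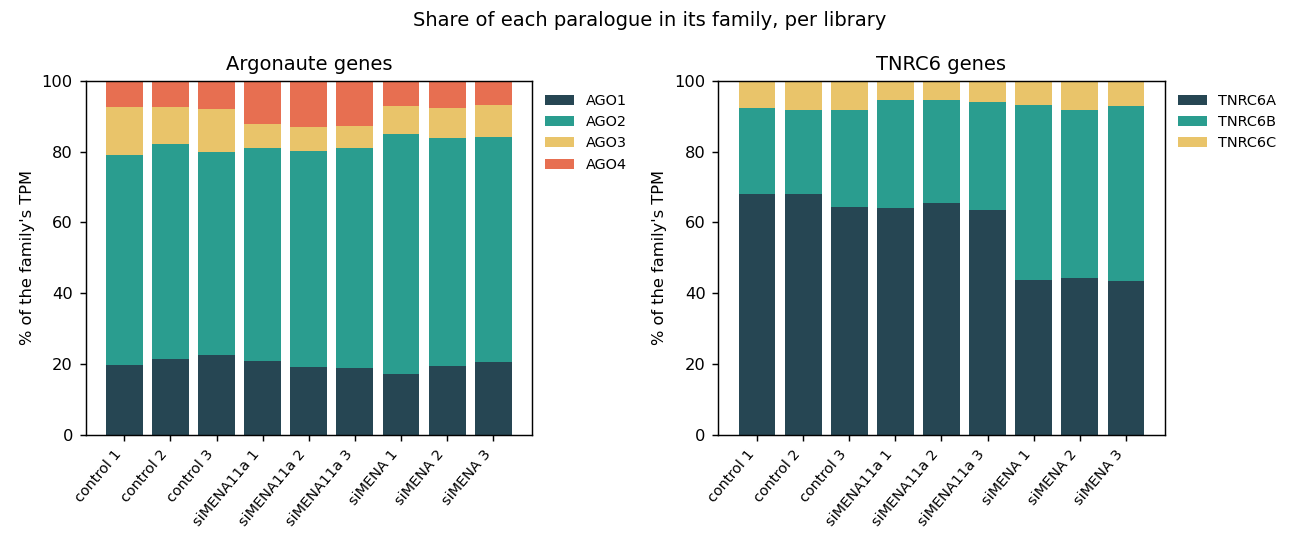
Share of each paralogue in the summed TPM of the Argonaute genes (left) and the TNRC6 genes (right), 1 bar per library. AGO4 takes 12.6% on average in siMENA11a against 7.55% in control, and TNRC6B takes 48.8% in siMENA against 25.1% in control.

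Of the TNRC6 scaffolds, TNRC6A fell and TNRC6B rose in siMENA. TNRC6A (chromosome 16) was at 19.7, 19.6 and 16.4 scaled TPM in the controls, 17.2, 18.5 and 18.6 with siMENA11a and 12.0, 11.2 and 11.2 with siMENA. The siMENA libraries lay below all others. TNRC6A fell by 0.67 ± 0.071 on the log2 scale in siMENA against control (ratio 0.618, adjusted p = 5.34e-05) and was 0.63 ± 0.071 higher in siMENA11a than in siMENA (adjusted p = 4.13e-05). In siMENA11a against control its log2 fold change was -0.03 ± 0.071 (adjusted p = 0.714).

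TNRC6B (chromosome 22) was at 7.01, 6.87 and 6.93 scaled TPM in the controls, 8.21, 8.20 and 8.84 with siMENA11a and 13.6, 12.0 and 12.7 with siMENA. The groups did not overlap and siMENA was highest. TNRC6B rose by 0.83 ± 0.054 on the log2 scale in siMENA (ratio 1.84, adjusted p = 2.57e-06), the largest absolute change of the 10 genes in either knockdown against control. It rose by 0.26 ± 0.054 in siMENA11a (ratio 1.21, adjusted p = 0.00255), and with unscaled TPM the value was 0.14 and not called (adjusted p = 0.136). It was 0.57 ± 0.054 lower in siMENA11a than in siMENA (adjusted p = 1.35e-05).

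TNRC6C (chromosome 17), the least abundant of the 10 genes in each group, was at 2.25, 2.37 and 2.09 scaled TPM in the controls, 1.48, 1.48 and 1.76 with siMENA11a and 1.83, 2.07 and 1.83 with siMENA. Both knockdowns lay below all control libraries. TNRC6C fell by 0.40 ± 0.092 on the log2 scale in siMENA11a (ratio 0.703, adjusted p = 0.00449). The differences of -0.19 ± 0.092 in siMENA against control (adjusted p = 0.124) and -0.22 ± 0.092 between the knockdowns (adjusted p = 0.0682) were not called. The first was called under quantile normalisation (-0.25, adjusted p = 0.0470). The second was called there (-0.25, adjusted p = 0.0401), in TPM as deposited (-0.38, adjusted p = 0.0117) and without siMENA11a 3 (-0.28, adjusted p = 0.0389).

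The sum of the 3 TNRC6 genes was 27.7 ± 2.05 scaled TPM in the controls, 28.1 ± 1.14 with siMENA11a and 26.2 ± 1.11 with siMENA (SD, n = 3), and the groups overlapped. Within it the share of TNRC6A was 66.8% ± 2.07, 64.4% ± 1.05 and 43.9% ± 0.456, and that of TNRC6B 25.1% ± 1.93, 30.0% ± 0.761 and 48.8% ± 1.22, in the same order. TNRC6A was the most abundant scaffold transcript in control and siMENA11a, and TNRC6B in siMENA.

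Across the 10 genes the control order was AGO2 (27.4 ± 1.11 scaled TPM), DICER1 (26.7 ± 2.59), DROSHA (26.6 ± 0.492), XPO5 (22.1 ± 0.647), TNRC6A (18.6 ± 1.92), AGO1 (9.84 ± 0.654), TNRC6B (6.93 ± 0.0697), AGO3 (5.54 ± 0.632), AGO4 (3.49 ± 0.125) and TNRC6C (2.24 ± 0.14). AGO2 and DICER1, and DICER1 and DROSHA, overlapped over the control libraries, and the other neighbours did not. Among tested genes in control AGO2 stood at percentile 78.2 and TNRC6C at percentile 19.5. In siMENA11a XPO5 stood below TNRC6A, and DICER1 and DROSHA were the neighbours that overlapped. In siMENA DROSHA and XPO5 stood above DICER1, and TNRC6A and AGO1 overlapped. Libraries did not overlap for 8 of the 10 genes in siMENA11a against control (62.9% of all genes), 7 in siMENA against control (57.6%) and 10 in siMENA11a against siMENA (65.1%). The median log2 fold change of the 10 genes was -0.19, 0.01 and -0.28 in the 3 comparisons, against 0.01, 0.01 and 0.00 for all tested genes.

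Over the 9 libraries the log2 values most like those of AGO4 were those of CREM (Pearson r = 0.995), IFT20 (0.991), BAK1 (0.991) and CSNK1A1 (0.990). Those most like TNRC6B were AREG (0.993), ADO (0.987), WBP1 (0.986) and KLHL42 (0.986). These are descriptions over 3 groups of 3 libraries, picked as the highest among all other tested genes.

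Of 11 cofactors of nuclear processing and export, 5 were lower, 1 was higher and 5 were not called in siMENA11a against control (median -0.11 on the log2 scale), a share called of 54.5% against 55.6% of all tested genes. For this list and those that follow, 27.7% of all tested genes were lower and 27.9% higher in siMENA11a against control, and 25.8% lower and 23.7% higher in siMENA against control. DGCR8, which holds the primary transcript for DROSHA, was at 11.7, 11.4 and 11.4 scaled TPM in the controls, 8.70, 8.85 and 8.29 with siMENA11a and 12.4, 11.1 and 12.5 with siMENA. Its siMENA11a libraries lay below all others, and it fell by 0.40 ± 0.053 (ratio 0.75, adjusted p = 0.000174). SRRT (ARS2), which links the nuclear cap-binding complex to microRNA processing, fell by 0.67 ± 0.031 (ratio 0.622, adjusted p = 2.38e-07), and the RNA helicase DDX5 rose by 0.34 ± 0.036 (adjusted p = 4.08e-05). DDX17, also in this list, fell by 0.19 ± 0.028 in siMENA11a (adjusted p = 0.000334). In siMENA, 0 of the 11 were higher, 5 were lower and 6 were not called (median -0.02). SRRT was among these lower genes (-0.13 ± 0.031, adjusted p = 0.00669), a call lost in TPM as deposited (-0.04, adjusted p = 0.473). RAN, the GTPase that export receptors such as XPO5 need, was at 435 to 448 scaled TPM in the controls, 365 to 386 with siMENA11a and 215 to 224 with siMENA, a fall of 1.01 ± 0.032 in siMENA (ratio 0.496, adjusted p = 6.38e-08).

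Of 23 Dicer partners and factors of Argonaute loading, 10 were lower, 6 higher and 7 not called in siMENA11a (median -0.14), where 27.7% of all tested genes were lower and 27.9% higher. PRKRA (PACT), a double-stranded RNA-binding partner of DICER1, was at 26.7 to 28.9 scaled TPM in the controls, 19.0 to 19.4 with siMENA11a and 26.5 to 28.0 with siMENA, a fall of 0.54 ± 0.040 in siMENA11a (adjusted p = 4.46e-06). TARBP2, also in this list, fell by 0.32 ± 0.061 in siMENA11a (adjusted p = 0.00171) and by 0.18 ± 0.061 in siMENA (adjusted p = 0.0321). In siMENA11a HSP90AA1, a chaperone that opens Argonaute for duplex loading, fell by 0.78 ± 0.037 (ratio 0.580, adjusted p = 2.80e-07) and the chaperone HSPA4 by 0.42 ± 0.030 (adjusted p = 3.57e-06). HSP90AB1, the other HSP90 gene of the list, averaged 599 scaled TPM in control and in siMENA11a and was not called (adjusted p = 0.992). Also in this list, HSPA8 and FKBP4 were called lower and PTGES3 and AHSA1 higher in siMENA11a. FXR2, an RNA-binding protein of the fragile X family, rose by 0.46 ± 0.042 (adjusted p = 1.57e-05). In siMENA 2 of the 23 were higher, 10 lower and 11 not called (median -0.09). Its falls included FXR1 (-0.69 ± 0.048, adjusted p = 3.81e-06), LIMD1, which bridges Argonaute and TNRC6 proteins (-0.47 ± 0.040, adjusted p = 1.42e-05), and TSN, a subunit of the nuclease C3PO (-0.51 ± 0.044, adjusted p = 1.45e-05). In siMENA11a FXR1 was not called, and LIMD1 (-0.16, adjusted p = 0.00895) and TSN (-0.28, adjusted p = 0.000478) were also lower. That call of LIMD1 was lost with TPM rescaled without small and structured RNAs (-0.08, adjusted p = 0.162).

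Of 10 genes for tailing and turnover of small RNAs, 7 were tested. In siMENA11a 3 were higher, 0 lower and 4 not called, and in siMENA 4 were higher, 2 lower and 1 not called. With 7 genes, these counts stand beside 27.9% higher and 27.7% lower of all tested genes in siMENA11a and 23.7% and 25.8% in siMENA. ZCCHC6 (TUT7), which adds uridines to let-7 precursors, was at 5.71 to 6.57 scaled TPM in the controls, 9.50 to 10.6 with siMENA11a and 7.0 to 7.81 with siMENA. It rose by 0.65 ± 0.069 in siMENA11a (ratio 1.61, adjusted p = 4.15e-05) and by 0.26 ± 0.069 in siMENA (adjusted p = 0.0101). LIN28A, LIN28B and TRIM71 were below the filter. Of 10 PIWI pathway genes, which serve small RNAs of the germline, 2 were tested (PIWIL2 and PLD6) and 3 were listed at 0 in all 9 libraries.

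Of 16 deadenylation genes 4 were higher, 4 lower and 8 not called in siMENA11a (median 0.02), and 6 were higher, 2 lower and 8 not called in siMENA (median 0.09). In both, 8 of the 16 were called, near the 55.6% and 49.4% of all tested genes. PABPC4, a cytoplasmic poly(A)-binding protein, was at 46.6 to 46.8 scaled TPM in the controls, 13.7 to 14.2 with siMENA11a and 49.4 to 51.5 with siMENA, a fall of 1.71 ± 0.030 in siMENA11a (ratio 0.298, adjusted p = 7.36e-10). CNOT6, a deadenylase of the CCR4-NOT complex, was at 9.27 to 10.4, 9.41 to 9.92 and 4.94 to 5.73 in the same order, a fall of 0.81 ± 0.064 in siMENA (ratio 0.547, adjusted p = 8.27e-06). Its paralogue CNOT6L averaged 10.8 scaled TPM in control and 10.4 in siMENA and was not called (-0.05 ± 0.053, adjusted p = 0.511).

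Of 21 genes of translational repression, decapping and decay, 4 were higher, 6 lower and 11 not called in siMENA11a (median -0.02), and 8 were higher, 6 lower and 7 not called in siMENA (median 0.09). EDC3, an activator of decapping, was at 13.1 to 13.8 scaled TPM in the controls, 8.25 to 8.91 with siMENA11a and 18.5 to 20.4 with siMENA. It fell by 0.62 ± 0.049 in siMENA11a (adjusted p = 5.88e-06), rose by 0.50 ± 0.049 in siMENA (adjusted p = 3.12e-05) and differed by -1.12 ± 0.049 between the knockdowns (adjusted p = 1.10e-07). The decapping enzyme DCP2 rose by 0.49 ± 0.054 in siMENA (adjusted p = 7.18e-05), and EIF4E2, a cap-binding repressor, fell there by 0.57 ± 0.061 (adjusted p = 5.28e-05).

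Of 22 microRNA host transcripts, 20 were in the table and 10 were tested. Their values are TPM per gene and do not measure the primary microRNA transcripts that DROSHA crops. Mature microRNAs were not measured. In siMENA11a 2 were higher, 3 lower and 5 not called (median 0.04), and in siMENA 3 were higher, 4 lower and 3 not called (median -0.11). MIR31HG was at 4.59 to 4.98 scaled TPM in the controls, 7.29 to 7.89 with siMENA11a and 5.94 to 7.29 with siMENA, a rise of 0.60 ± 0.077 in siMENA11a (adjusted p = 0.000141) and of 0.38 ± 0.077 in siMENA (adjusted p = 0.00294). MIR22HG fell by 0.47 ± 0.050 in siMENA (adjusted p = 5.36e-05) and MIR4435-1HG by 0.70 ± 0.049 (adjusted p = 4.09e-06). In siMENA11a MIR22HG was called higher (0.15 ± 0.050, adjusted p = 0.0258) and MIR4435-1HG lower (-0.13 ± 0.049, adjusted p = 0.0434). That call of MIR22HG was lost in TPM as deposited (0.02, adjusted p = 0.817). MIR17HG, the host of the miR-17 to miR-92a cluster, was at 1.70 to 2.46 scaled TPM in the controls, 1.10 to 1.78 with siMENA11a and 3.50 to 5.17 with siMENA, and differed by -1.32 ± 0.18 between the knockdowns (adjusted p = 0.000140).

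**Figure D5:**
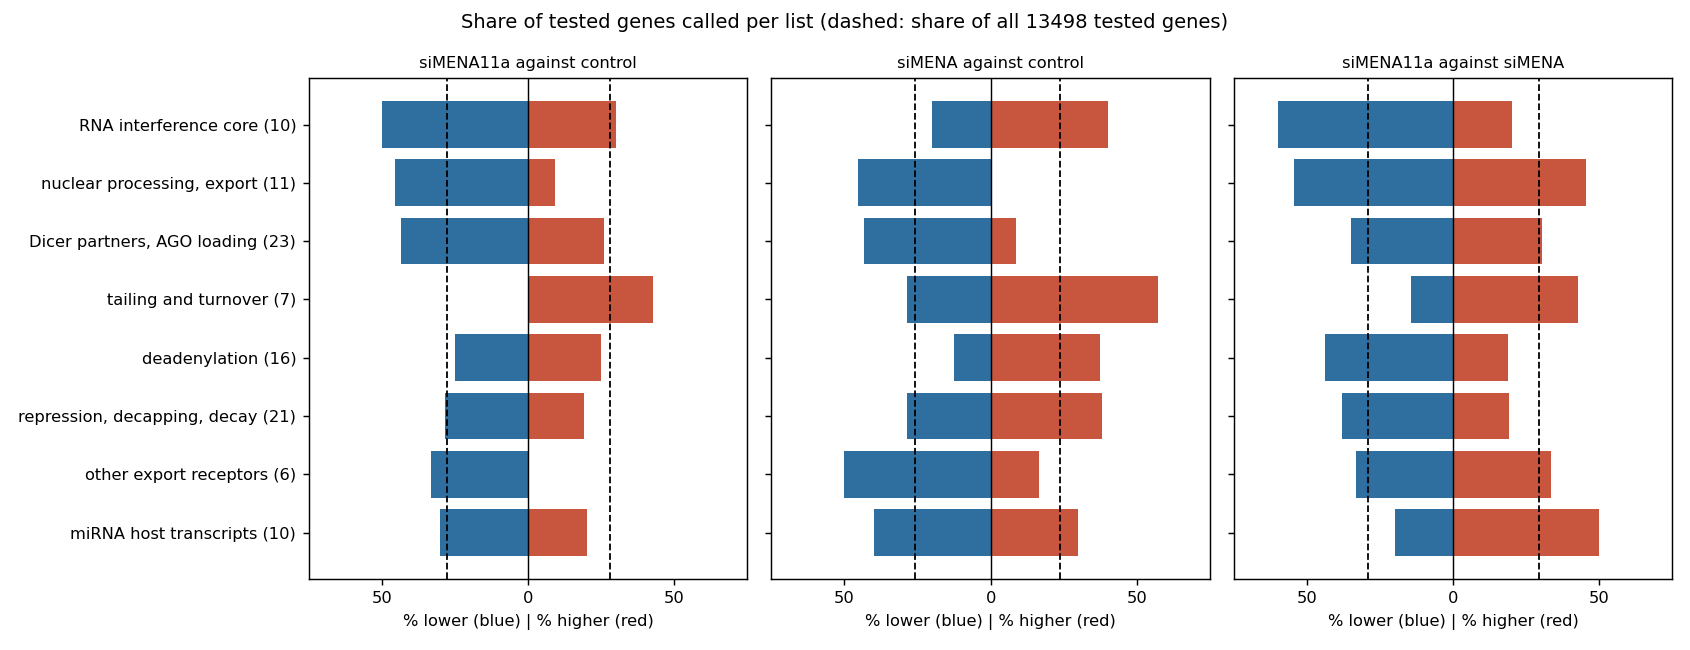
Percentage of the tested genes of each list called lower (blue, left) and higher (red, right) in the 3 comparisons, with the number of tested genes in brackets and dashed lines at the shares of all 13498 tested genes. In siMENA11a against control 5 of the 10 core genes and 0 of 7 tailing and turnover genes are lower. Of all tested genes 27.7% are lower there.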

How the data were processed

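The deposited table holds 1 TPM value per gene and library, made by the authors and rounded to 2 decimals, for 29972 genes in 9 libraries of ribosome-depleted, stranded total RNA. Per the file headers most transcript identifiers are those of RefSeq, and per the submitters' processing notes kallisto and GRCh37 were used, with no role or version. Aligner, counting options and strand setting: not given in the sources used here. Because TPM holds no depth, counting error cannot be stated.

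TPM was divided by a median-of-ratios size factor from 12341 genes with a mean of at least 1 TPM and no 0. The 13498 genes with a mean of at least 0.5 scaled TPM entered limma 3.58.1 (R 4.3.3) as log2(scaled TPM + 0.5) (3 group means, eBayes with trend, no block). Such fold changes understate those of low genes, and errors of fold changes are standard errors. A gene was called at a p below 0.05 after Benjamini-Hochberg adjustment over all tested genes of a comparison. The members, the 13 lists (148 entries, of which 146 were in the table) and the words were chosen with earlier results of these data known, and no test was made over a list. Named were the 10 members, ENAH, up to 4 called genes of each pathway list per comparison with the smallest adjusted p, and the 4 genes most like the most changed member. Related genes of the same list were added beside HSP90AA1, CNOT6, PABPC4, DDX5 and PRKRA. The 10 core genes matched by symbol in GENCODE 29 (GRCh38), which gave positions and 3' UTRs for 83.8% of tested genes; it is not the build listed for the files.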

Additional observations from a re-analysis of the deposited data

How the results depend on the processing

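The alternatives were TPM as deposited, TPM without small and structured RNAs, quantile normalisation, pseudocounts of 0.1 and 1, no filter, a filter at a mean of 5, robust eBayes, a replicate block, fits of 2 groups alone and each library left out. With a filter at 5 TPM, 7 of the 10 members were left to test, and 5 were called in siMENA11a against control instead of 8. AGO3, AGO4 and TNRC6C, each called in the main fit, fell below this filter, and the members left to test kept their calls. Of all genes tested under it 65.0% were called in that comparison. With each library left out in turn, 7 to 8 members were called in siMENA11a against control, 5 to 6 in siMENA against control, 7 to 9 in siMENA11a against siMENA, and 9 to 10 differed among the groups. With the replicate block the counts were 7, 5, 8 and 9. The block left 54.1% of all tested genes called in siMENA11a against control, 47.3% in siMENA against control and 57.3% in siMENA11a against siMENA. Samples with the same number share only a number (correlations of their deviations from -0.065 to 0.058), and the block ended the calls of AGO2 in siMENA11a and AGO1 in siMENA given in the report. Among values called in at least one of the fits compared, the sign turned in TPM as deposited for ENAH in siMENA11a against control (-0.014), and in siMENA11a against siMENA for ERH (-0.088), ZSWIM8 (-0.18), PABPC1 (-0.20), XPO1 (-0.18) and XPO6 (-0.065). It turned without small and structured RNAs for DROSHA in siMENA against control (0.0948). Under quantile normalisation it turned for ERH (0.10) and XPO1 (0.019) in siMENA11a against control, and for ERH (0.025), CSE1L (0.090) and XPO1 (0.033) in siMENA against control. Signs also turned for values called in neither fit, 11 in TPM as deposited, 16 without small and structured RNAs and 9 under quantile normalisation. Of the members these were DICER1 in siMENA11a against siMENA (-0.039) and DROSHA in siMENA against control (0.079) in TPM as deposited, AGO1 (0.070) and TNRC6A (0.044) in siMENA11a against control without small and structured RNAs, and DROSHA in siMENA against control under quantile normalisation (0.052). In TPM as deposited, all called genes numbered 1965 higher against 3770 in siMENA11a against control, 2300 lower against 3478 in siMENA against control, and 6321 lower against 3937 between the knockdowns. The cause of these shifts was not tested. Depth is unknown and could not be weighed.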
